A study of Arabidopsis thaliana with 24 samples.

Results

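The comparison described here is cat2shr against shr before any stress was applied, so it asks what the loss of CATALASE2 (CAT2) changed in shoots that already lacked a working SHORT-ROOT (SHR) gene. Its members are 6 of the 24 RNA sequencing libraries of the study, 3 from cat2shr and 3 from shr, chosen by their genotype and time labels alone, and all 20347 genes that passed a filter on low counts, of 33602 loci in the count table. The cat2shr plants carried mutations in both CAT2 and SHR (labelled cat2xshr), and the shr plants in SHR only, so both groups lacked SHR. The cat2 mutant and its wild type Col-0, each with 3 libraries at 0 h, serve below to set the same loss of CAT2 beside plants with an intact SHR, and cat2shr and shr at 24 h of stress to set it beside treated plants. All were 3-week-old Arabidopsis thaliana seedlings of the Columbia-0 ecotype, and shoot tissue was harvested. They had grown for 21 days on agar medium with 1% sucrose at 21 °C, under days of 16 h light (100 µmol photons per square metre each second) and nights of 8 h. The 0 h groups are the labelled controls, and the 24 h groups were sealed with Parafilm to restrict gas exchange and kept in continuous light. The labels name no alleles and do not say how many plants made a library or whether replicates came from separate plates. Any other difference between the shr and cat2shr lines cannot be told apart here from the loss of CAT2. The p-values reflect how far libraries within a group differ, with the spread estimated over all 24 libraries of the 8 groups. That spread may be technical.

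Catalases break down hydrogen peroxide in peroxisomes, and CAT2 is the main leaf form, which removes the peroxide made when glycolate is oxidised during photorespiration. Cytosolic ascorbate peroxidases and glutathione-dependent enzymes remove peroxide by other routes, and mutants without CAT2 are used as a model of peroxide stress that arises inside the leaf cell. SHR is a mobile GRAS-family transcription factor, best known for forming the root endodermis and also active in the bundle sheath of leaves. The title of the series concerns how SHR deficiency bears on cell death in the catalase2 mutant.

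Library totals were 26.85 to 30.56 M counts in cat2shr and 29.86 to 38.46 M counts in shr. CPM below means counts per M counts after scaling of library sizes. Within a group, shr replicate 1 lay furthest from its companions, with 668 genes more than 2-fold from the mean of the other libraries, 586 of them below it, against 354 to 539 genes in the other 5 libraries. Oxidative stress markers lay below the other shr libraries there, by a median log2 distance of -1.57. In shr replicate 2 the jasmonate genes had a median log2 distance of 1.43 above the other shr libraries. Shoot identity was plain in both groups, since the 42 photosynthesis genes summed to 87100 to 111000 CPM in cat2shr and 126000 to 133000 CPM in shr. The 5 root markers tested summed to 122 to 164 CPM in cat2shr and 130 to 193 CPM in shr, and the 7 floral organ markers to 1.62 to 2.47 CPM in cat2shr and 1.7 to 1.8 CPM in shr. In these bulk samples, fewer cells of a type and less RNA per cell cannot be told apart.

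Few genes differed between cat2shr and shr past the threshold used here. By edgeR's quasi-likelihood test, 616 of 20347 genes (3.03%) passed the threshold used for every call here, an adjusted p (Benjamini-Hochberg) under 0.05, 293 higher in cat2shr and 323 lower. DESeq2 called 1198 genes at that threshold, and edgeR gave 3899 genes at an unadjusted p under 0.05. A change of at least 2-fold was seen in 84 of the higher and 124 of the lower genes called by edgeR. The median log2 change was 0.56 among the higher and -0.83 among the lower genes, against 0.005 over all genes tested. The 3 cat2shr libraries lay entirely above or below the 3 shr libraries for 570 of the 616 called genes, and for 19% of all genes tested. Higher genes made up 47.6% of the calls, and 70.7% of 905 calls when libraries were scaled by size alone, which moved the median of all genes to 0.054. Called genes were spread over the chromosomes, at 2.51% of the genes tested on chromosome 3 to 3.63% on chromosome 4, which carries both CAT2 and SHR. All 11 tested neighbours of CAT2 and SHR, up to 3 loci on each side, had an adjusted p over 0.05.

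**Figure D1:**
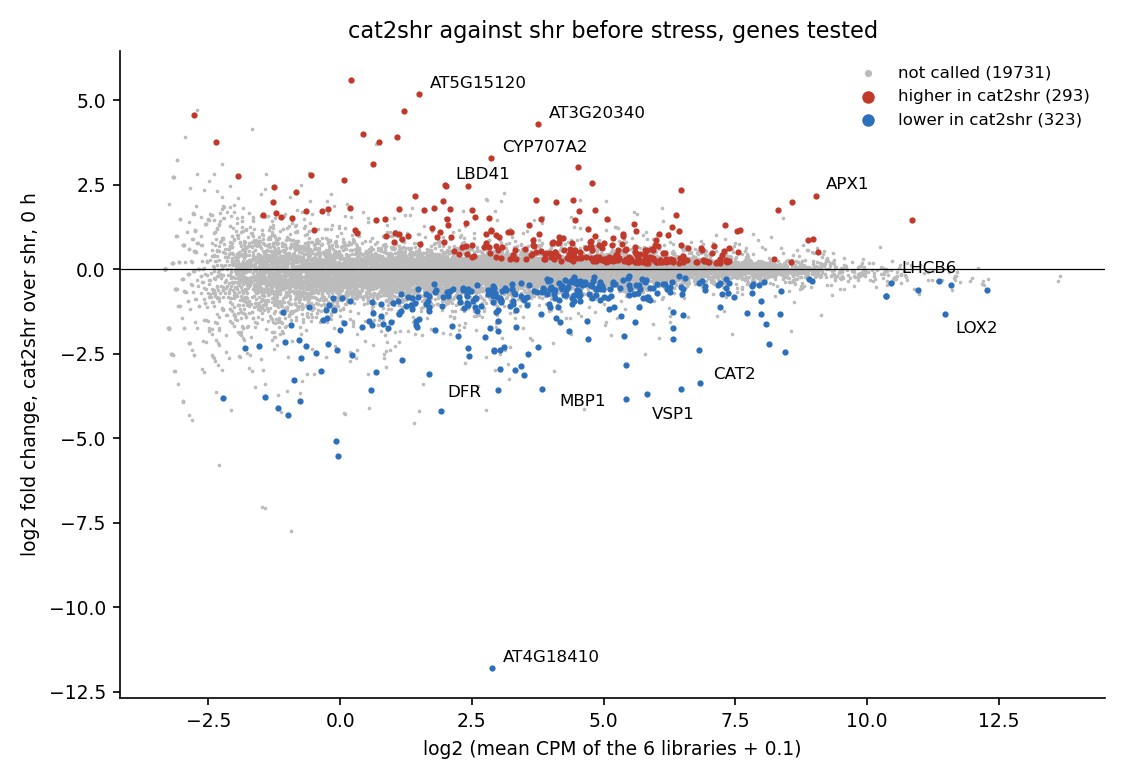
Each point is 1 of the 20347 genes tested, with log2 of its mean CPM (plus 0.1) over the 6 libraries on the horizontal axis and its log2 fold change, cat2shr over shr at 0 h, on the vertical axis. The 293 genes called higher in cat2shr are red and the 323 called lower are blue, and APX1 stands out among the abundant genes that rose.

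The number of calls depended on which libraries were used. Leaving out a single library gave 225 called genes (without shr replicate 2), 233 (without cat2shr replicate 2), 298 (without cat2shr replicate 3), 526 (without shr replicate 1), 636 (without shr replicate 3) and 970 (without cat2shr replicate 1). Of the 616 genes, 137 were called in every one of these 6 fits, 77 higher and 60 lower. When the spread was estimated from the 6 libraries alone, 7 genes were called. These were AT4G18410, GRP9 (AT2G05440, a glycine-rich protein), TPD1 (AT4G24972), APX1 (AT1G07890), AT4G08790, AT4G11670 and AT5G44260, and all but GRP9 were also called in the fit to all libraries.

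CAT2 (AT4G35090) itself fell, which checks the labels. It had 26.3, 17.4 and 17.4 CPM in cat2shr replicates 1, 2 and 3, against 126, 264 and 236 CPM in the shr replicates. The groups did not overlap, and CAT2 was 3.36 log2 units lower in cat2shr (log2 -3.36, SE 0.322, adjusted p = 8.63e-06). It also averaged 17.5 ± 4 CPM in cat2 and 374 ± 150 CPM in Col-0 (SD, n = 3 each). SHR (AT4G37650) was low in both groups, with 0.519, 0.652 and 0.584 CPM in cat2shr and 1.02, 1.07 and 1.05 CPM in shr, against 7.81 ± 0.744 CPM in cat2 and 9.96 ± 0.74 CPM in Col-0. The remaining SHR reads were fewer in cat2shr than in shr (log2 -0.84, SE 0.171, adjusted p = 0.0258), a call lost without shr replicate 2 or any 1 of the cat2shr replicates.

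The other catalase genes showed no change past the threshold. CAT1 (AT1G20630) had 116, 137 and 99.4 CPM in cat2shr and 87.3, 76.6 and 103 CPM in shr, so that the groups overlapped (log2 0.40, SE 0.158, adjusted p = 0.169). CAT3 (AT1G20620), the catalase with the most counts here, had 2850, 2020 and 1650 CPM in cat2shr and 3320, 1660 and 3060 CPM in shr (log2 -0.31, SE 0.228, adjusted p = 0.503). Its libraries also overlapped, and the spread within each group was as wide as the difference between them.

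The 10 largest rises and 10 largest falls were taken from called genes with a mean of at least 5 CPM and no overlap between groups. Separation of the groups was therefore set by the choice for these genes. AT5G15120, a less abundant gene described below, rose more than any of the 10 (log2 5.17). Among the 10 genes with the largest rise, AT3G20340 was first. It had 13.5, 26.8 and 36.8 CPM in cat2shr and 0.441, 0.963 and 2.4 CPM in shr (log2 4.3, SE 0.48, adjusted p = 6.93e-05). RefSeq notes of this gene, which has no named function, that paraquat lowers its expression, and without shr replicate 3 its log2 change was 5.13. CYP707A2 (AT2G29090), an abscisic acid 8'-hydroxylase that breaks down this hormone, had 15.7, 8.77 and 14.8 CPM in cat2shr and 1.87, 1.15 and 1.05 CPM in shr (log2 3.29, SE 0.324, adjusted p = 8.63e-06). The lowest cat2shr library lay well above the highest shr library for both genes. AT2G05540, of a glycine-rich protein family, had 13.9, 54.9 and 52.4 CPM in cat2shr and 3.63, 4.48 and 6.75 CPM in shr (log2 3.02, SE 0.416, adjusted p = 0.000766). Here cat2shr replicate 1 was well below its companions, though above every shr library as the choice of these genes required.

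The 250 bases before the annotated start of these genes are shown because they are the genes with the largest rises, and the same is done for the largest falls below. Positions and sequences are those of RefSeq assembly TAIR10.1 with its own annotation, read 5' to 3' on the strand of the gene, and capitals mark matches to 8 short motifs defined after the falls. They lie at chr3:7093527-7093776 (minus strand) for AT3G20340, chr2:12499724-12499973 (minus strand) for CYP707A2 and chr2:2032904-2033153 (plus strand) for AT2G05540.
AT3G20340: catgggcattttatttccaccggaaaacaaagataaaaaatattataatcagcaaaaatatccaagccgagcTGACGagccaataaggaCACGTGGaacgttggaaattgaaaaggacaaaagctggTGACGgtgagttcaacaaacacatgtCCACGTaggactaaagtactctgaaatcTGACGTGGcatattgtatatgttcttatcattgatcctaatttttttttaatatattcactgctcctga
CYP707A2: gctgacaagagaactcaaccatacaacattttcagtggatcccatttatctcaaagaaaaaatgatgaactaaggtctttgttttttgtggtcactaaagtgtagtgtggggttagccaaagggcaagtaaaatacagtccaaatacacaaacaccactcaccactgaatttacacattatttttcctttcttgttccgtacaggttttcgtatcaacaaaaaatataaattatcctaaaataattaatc
AT2G05540: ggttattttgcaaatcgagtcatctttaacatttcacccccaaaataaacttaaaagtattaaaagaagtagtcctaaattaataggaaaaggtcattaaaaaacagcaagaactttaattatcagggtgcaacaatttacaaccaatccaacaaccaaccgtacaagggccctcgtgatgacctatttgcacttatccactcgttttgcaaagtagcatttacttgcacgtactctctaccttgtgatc

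The AT3G20340 window held 7 matches. They were 3 as-1 cores, 3 ABRE matches and 1 G-box, of which the G-box overlapped the ABRE in the run CACGTGG, and another ABRE overlapped an as-1 core. No listed motif was found in the CYP707A2 or the AT2G05540 window, which says only that these letters are absent there.

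APX1, cytosolic ascorbate peroxidase, was the most abundant of the 10. It had 779, 948 and 834 CPM in cat2shr and 171, 164 and 231 CPM in shr (log2 2.18, SE 0.191, adjusted p = 1.97e-06). The groups were far apart, and its call held in each of the 15 alternatives run, which was so for 2 of the 51 called genes named by rule. AT1G57590, a pectin acetylesterase family gene of the cell wall, had 63.4, 36.4 and 39.8 CPM in cat2shr and 10.7, 7.68 and 5.43 CPM in shr (log2 2.56, SE 0.309, adjusted p = 0.000153). SLAH2 (AT4G27970), a homologue of the guard cell anion channel SLAC1, had 2.34, 12.2 and 12.3 CPM in cat2shr and 0.611, 2.03 and 2.12 CPM in shr (log2 2.47, SE 0.465, adjusted p = 0.00782). In both groups replicate 1 of SLAH2 was the lowest.

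AT3G62860, of the alpha/beta-hydrolase superfamily, was even across replicates. It had 18.6, 22.7 and 22 CPM in cat2shr and 4.38, 6.95 and 3.86 CPM in shr (log2 2.05, SE 0.171, adjusted p = 1.88e-06). The last 3 of the 10 varied most within cat2shr, where replicate 2 was highest in each. CYP81D11 (AT3G28740), a cytochrome P450, had 46.5, 241 and 156 CPM in cat2shr and 19.4, 45.4 and 22.1 CPM in shr (log2 2.35, adjusted p = 0.025). AT4G01870, a tolB protein-like gene, had 288, 1020 and 530 CPM in cat2shr and 63.6, 210 and 186 CPM in shr (log2 2.00, adjusted p = 0.021). AT5G16980, a zinc-binding dehydrogenase family gene, had 11.4, 62.8 and 28.6 CPM in cat2shr and 5.3, 7.91 and 11.3 CPM in shr, where the closest libraries nearly met (log2 2.06, adjusted p = 0.0327). All 3 lost their call without cat2shr replicate 2 (log2 1.8, 1.41 and 1.28, adjusted p = 0.109, 0.107 and 0.172) and without shr replicate 1 (adjusted p = 0.0769, 0.0529 and 0.0965). CYP81D11 also lost it without cat2shr replicate 3 or shr replicate 3, and AT5G16980 without cat2shr replicate 3 or shr replicate 2.

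The largest fall was a locus without counts in cat2shr. AT4G18410, annotated in RefSeq as a pseudogene, had 0 counts in all 3 cat2shr libraries, against 14.4, 14.3 and 15 CPM in shr, from 1519 counts. Against a floor of 3 counts over the cat2shr group (0.0343 CPM), it was at least 426-fold lower in cat2shr (adjusted p = 1.9e-06). It also had 0 counts in every cat2 and every Col-0 library at both times. At 24 h it had 2 counts in cat2shr, against 1448 counts in shr. Why it was counted almost only in the shr libraries was not tested.

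MBP1 (AT1G52040), a myrosinase-binding protein, came next. It had 6.68, 5.25 and 4.67 CPM in cat2shr and 97.3, 129 and 14 CPM in shr (log2 -3.85, SE 0.553, adjusted p = 0.00109). AT1G52000, a mannose-binding lectin gene, followed the same order of libraries in shr, with 18.7, 11.3 and 12.3 CPM in cat2shr and 107, 364 and 21.2 CPM in shr (log2 -3.54, SE 0.647, adjusted p = 0.00695). For both genes shr replicate 3 was close to the cat2shr libraries. VSP1 (AT5G24780), a vegetative storage protein induced by wounding and jasmonate, had 6.78, 12.1 and 5.49 CPM in cat2shr and 20.1, 227 and 69.5 CPM in shr (log2 -3.71, SE 0.634, adjusted p = 0.00439). Without shr replicate 2, which had the most VSP1, the log2 change was -2.47 for VSP1 and -2.17 for AT1G52000, and both stayed called.

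The windows of the largest falls lie at chr4:10171677-10171926 (plus strand) for AT4G18410, chr1:19352792-19353041 (minus strand) for MBP1 and chr5:8509202-8509451 (minus strand) for VSP1. They are shown, with matches in capitals, for comparison with those of the genes that rose.
AT4G18410: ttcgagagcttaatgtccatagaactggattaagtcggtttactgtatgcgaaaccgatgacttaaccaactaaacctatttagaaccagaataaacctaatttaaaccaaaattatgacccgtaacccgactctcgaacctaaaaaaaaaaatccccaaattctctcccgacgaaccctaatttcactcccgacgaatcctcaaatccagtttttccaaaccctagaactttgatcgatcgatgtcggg
MBP1: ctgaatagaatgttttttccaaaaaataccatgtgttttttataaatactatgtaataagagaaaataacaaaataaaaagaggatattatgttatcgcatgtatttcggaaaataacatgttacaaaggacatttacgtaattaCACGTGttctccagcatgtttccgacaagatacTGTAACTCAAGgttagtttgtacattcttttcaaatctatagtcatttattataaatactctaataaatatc
VSP1: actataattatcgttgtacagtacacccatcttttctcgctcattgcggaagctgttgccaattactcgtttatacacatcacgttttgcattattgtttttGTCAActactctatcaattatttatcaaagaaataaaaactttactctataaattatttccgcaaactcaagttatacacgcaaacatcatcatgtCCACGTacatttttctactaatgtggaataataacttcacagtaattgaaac

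The MBP1 window held a G-box and 1 match to the mitochondrial dysfunction motif core. That of VSP1 held a W-box core and an ABRE, and that of AT4G18410 none of the motifs.

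The motifs were searched on both strands in the same window of 20323 genes tested. The G-box (CACGTG), a site of bZIP and bHLH factors, was in 15.2% of the windows of genes called lower in cat2shr and 4.78% of those called higher, against 7.38% of all windows. The abscisic acid response element (ABRE, ACGTGG), which can overlap the G-box, was in 15.5% of the lower and 7.51% of the higher set, against 8.95% of all. The phosphate starvation motif P1BS (GNATATNC) was in 8.05% of the lower and 4.78% of the higher set, against 5.43% of all. The other 5 differed little. The as-1 core (TGACG) was in 20.5% of the higher and 21.1% of the lower windows, against 19.3% of all, and the W-box core (TTGAC) in 44.4% and 40.9%, against 44.8%. The heat shock element (GAANNTTC) was in 9.22% of the higher and 7.74% of the lower set, against 9.49% of all. The core of the mitochondrial dysfunction motif was in 7.17% and 6.5%, against 7.38%, and the evening element (AAATATCT) in 5.8% and 5.26%, against 5%. These shares are descriptions without a test.

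The remaining large falls were in enzymes of oxylipin, flavonoid and starch metabolism and in a cold-regulated gene. HPL1 (AT4G15440), hydroperoxide lyase, had 2.5, 2.64 and 2.64 CPM in cat2shr and 13, 35.9 and 7.63 CPM in shr (log2 -2.86, SE 0.417, adjusted p = 0.00109). BAM5 (AT4G15210), a cytosolic beta-amylase, had 1.17, 3.01 and 2.75 CPM in cat2shr and 14.5, 35.4 and 9.95 CPM in shr (log2 -3.12, SE 0.499, adjusted p = 0.00216). Both genes were highest in shr replicate 2, and without it the log2 change was -1.98 for HPL1 and -2.40 for BAM5, still called. ST2A (AT5G07010), a sulfotransferase of hydroxyjasmonate, had 3.24, 0.761 and 2.61 CPM in cat2shr and 5.57, 39 and 8.13 CPM in shr (log2 -2.99, adjusted p = 0.0177). Its call was lost without shr replicate 2 (log2 -1.63, adjusted p = 0.108), cat2shr replicate 2 or cat2shr replicate 3. COR413IM1 (AT1G29395), a cold-regulated protein of the chloroplast envelope, had 23.8, 4.38 and 3.47 CPM in cat2shr and 172, 24.7 and 30 CPM in shr (log2 -2.83, adjusted p = 0.039). In both groups replicate 1 of COR413IM1 was highest, and the log2 change was -1.37 without shr replicate 1 (adjusted p = 0.218) and -4.26 without cat2shr replicate 1 (adjusted p = 0.00606). Its call was lost without cat2shr replicate 2 or 3 as well.

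**Figure D2:**
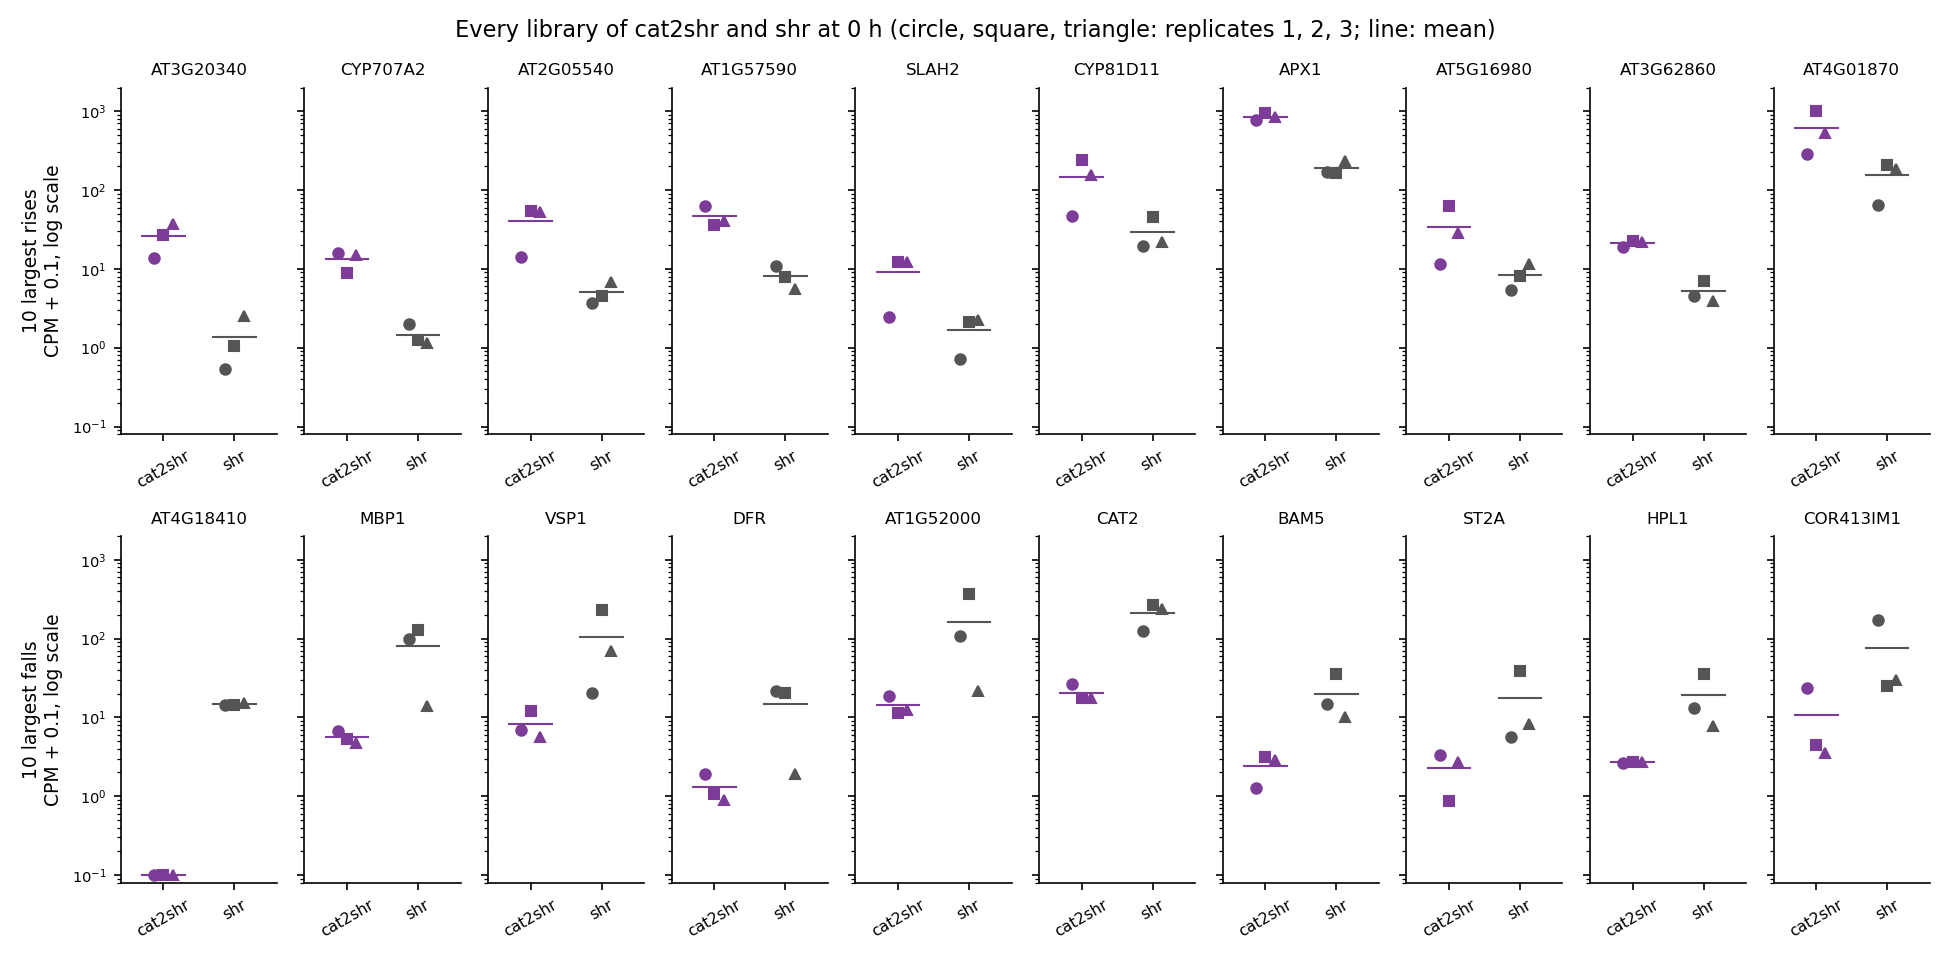
CPM (plus 0.1, log scale) of the 10 genes with the largest rise (upper row) and the 10 with the largest fall (lower row) in each library, with cat2shr left of shr in every panel. Points are libraries (circle, square and triangle for replicates 1, 2 and 3), lines are group means, and the shr libraries spread most in MBP1, VSP1, DFR and AT1G52000.

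Peroxide scavenging genes were called in both directions. Of 35 antioxidant enzyme genes tested, 3 rose and 3 fell, with a median log2 change of 0.03, against 1.44% and 1.59% of all genes. The risers were an ascorbate peroxidase gene and genes named as glutathione peroxidases. GPX6 (AT4G11600), a glutathione peroxidase, had 627, 704 and 624 CPM in cat2shr and 402, 353 and 303 CPM in shr, with no overlap (log2 0.89, SE 0.146, adjusted p = 0.00227). GPX1 (AT2G25080) had 597, 697 and 609 CPM in cat2shr and 450, 451 and 435 CPM in shr (log2 0.51, SE 0.102, adjusted p = 0.01), a call lost without cat2shr replicate 2. The third riser was APX1.

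The 3 genes of this list that fell were named after their values were seen, as were GPX1 and the other list members said below to be so. DHAR1 (AT1G19570), a dehydroascorbate reductase that recycles ascorbate, had 153, 106 and 109 CPM in cat2shr and 321, 407 and 168 CPM in shr (log2 -1.28, SE 0.219, adjusted p = 0.00383). CYT1 (AT2G39770), an enzyme of ascorbate synthesis also called VTC1, had 93.7, 84.7 and 111 CPM in cat2shr and 121, 184 and 137 CPM in shr (log2 -0.61, adjusted p = 0.0187). CSD3 (AT5G18100), a copper/zinc superoxide dismutase, had 26.9, 25.3 and 25.6 CPM in cat2shr and 32.1, 30 and 29.7 CPM in shr (log2 -0.24, adjusted p = 0.0313). None of the 3 overlapped between groups, and the calls of CYT1 and CSD3 were lost without cat2shr replicate 2 or shr replicate 2, and that of CSD3 also without cat2shr replicate 3 or shr replicate 1.

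The oxidative stress marker list, which holds genes that respond to peroxide and mitochondrial dysfunction, had no member called. Of its 29 members, 10 had a log2 change above 0 and 19 below, with a median of -0.28. At an unadjusted p under 0.05 there were 5 members, and DESeq2 called 1, higher in cat2shr. OPR1 (AT1G76680), an oxophytodienoate reductase, had 197, 808 and 504 CPM in cat2shr and 128, 200 and 200 CPM in shr, with cat2shr replicate 1 just inside the range of shr (log2 1.51, SE 0.422, adjusted p = 0.0589). AT5G09570, a Cox19-like protein gene, had 1.1, 0.652 and 0.275 CPM in cat2shr and 1.53, 1.69 and 1.76 CPM in shr (log2 -1.29, SE 0.529, adjusted p = 0.186). The markers differed more between replicates than between genotypes, since they summed to 528, 1600 and 867 CPM in cat2shr and 332, 932 and 888 CPM in shr, and replicate 1 was lowest in both groups. The median without shr replicate 1 was -0.63, with 3 members called lower, and 0.08 without shr replicate 3.

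Glutathione S-transferases of the tau and phi classes, which detoxify by conjugation, had 0 higher and 2 lower of 35 tested, with a median log2 change of 0.01, against 1.44% and 1.59% of all genes. Without cat2shr replicate 1, 5 rose and 3 fell (median -0.18), without shr replicate 3 none rose and 4 fell, and DESeq2 called 2 higher and 3 lower. GSTF12 (AT5G17220), which carries anthocyanins to the vacuole, had 4.31, 2.54 and 0.858 CPM in cat2shr and 22.4, 13.7 and 4.74 CPM in shr (log2 -2.40, SE 0.558, adjusted p = 0.0277). GSTF4 (AT1G02950) had 1.88, 1.45 and 1.75 CPM in cat2shr and 3.6, 3.1 and 2.34 CPM in shr (log2 -0.82, adjusted p = 0.0327). Neither overlapped between groups, and GSTF12 is also a member of the flavonoid list below, where its fall is counted again. Both calls were lost without cat2shr replicate 2 or 3 or shr replicate 1 or 2, and the log2 change of GSTF12 ran from -1.84 without shr replicate 1 to -2.99 without cat2shr replicate 1.

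Jasmonate is a lipid-derived hormone of wounding, made from linolenic acid in chloroplasts and peroxisomes. Of 34 jasmonate synthesis and signalling genes tested, 8 fell and 0 rose, against 1.59% and 1.44% of all genes, and 1 fell without shr replicate 2. The median log2 change was -0.95, with 33 members below 0. VSP2 (AT5G24770), the partner of VSP1, had 121, 138 and 39.6 CPM in cat2shr and 302, 733 and 354 CPM in shr (log2 -2.21, SE 0.426, adjusted p = 0.00946). The groups did not overlap, and without shr replicate 2 the adjusted p was 0.053. Named after their values were seen, LOX2 (AT3G45140), a chloroplast lipoxygenase at the start of the pathway, had 1940, 1550 and 1390 CPM in cat2shr and 4280, 6060 and 1860 CPM in shr (log2 -1.32, adjusted p = 0.0314), with shr replicate 3 inside the cat2shr range. AOS (AT5G42650), allene oxide synthase, had 141, 119 and 138 CPM in cat2shr and 285, 760 and 182 CPM in shr (log2 -1.63, adjusted p = 0.0321). Both calls were lost without shr replicate 2 (log2 -0.91 and -0.81), cat2shr replicate 2 or cat2shr replicate 3, that of LOX2 also without shr replicate 1 and that of AOS without cat2shr replicate 1.

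The jasmonate result rested largely on shr replicate 2. The 34 genes summed to 3810, 3410 and 3100 CPM in cat2shr and 7100, 12200 and 4110 CPM in shr, so that every shr library was above every cat2shr library and replicate 2 was far above the rest. Without shr replicate 2, 1 member was called lower and the median log2 change was -0.06. Without cat2shr replicate 2 or 3, 2 members were called lower in each fit, with medians of -1.10 and -0.99. What set shr replicate 2 apart was not tested.

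Flavonoids and anthocyanins are made from phenylalanine through chalcone synthase, and their late genes are switched on by MYB and bHLH factors. Of 25 members of this pathway tested, 11 fell and 1 rose, against 1.59% and 1.44% of all genes, and the median log2 change was -0.69. TT4 (AT5G13930), chalcone synthase, had 10.2, 10.6 and 6.73 CPM in cat2shr and 25.4, 35.5 and 14.4 CPM in shr (log2 -1.46, SE 0.25, adjusted p = 0.00383). The regulator PAP1 (AT1G56650), a MYB factor of the anthocyanin genes, had 1.75, 1.7 and 1.82 CPM in cat2shr and 8.28, 15.5 and 2.84 CPM in shr (log2 -2.33, SE 0.479, adjusted p = 0.0128). Neither gene overlapped between groups, and the call of PAP1 was lost without shr replicate 2 (log2 -1.65, adjusted p = 0.0786) or cat2shr replicate 2.

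DFR (AT5G42800), the dihydroflavonol reductase that leads into anthocyanins, was among the 10 largest falls. It had 1.82, 0.978 and 0.79 CPM in cat2shr and 21.4, 20.3 and 1.82 CPM in shr (log2 -3.59, SE 0.746, adjusted p = 0.0149). The highest cat2shr and the lowest shr library had the same rounded value. Named after their values were seen, LDOX (AT4G22880), the next enzyme of the pathway, had 3.05, 1.67 and 0.79 CPM in cat2shr and 18.7, 22 and 2.18 CPM in shr (log2 -2.95, adjusted p = 0.0318), and HY5 (AT5G11260), a light-signalling bZIP factor, was the list's riser at 5.03, 4.89 and 6.32 CPM in cat2shr and 3.36, 4.37 and 4.02 CPM in shr (log2 0.46, adjusted p = 0.0443). The calls of DFR, LDOX and HY5 were lost without cat2shr replicate 2 or 3 or shr replicate 2, and those of LDOX and HY5 also without shr replicate 1. HY5 lost it without shr replicate 3 too. Of the 11 falls in the list, 2 were called without cat2shr replicate 2, 3 without cat2shr replicate 3 and 2 without shr replicate 2, with list medians of -0.67, -0.76 and -0.42.

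**Figure D3:**
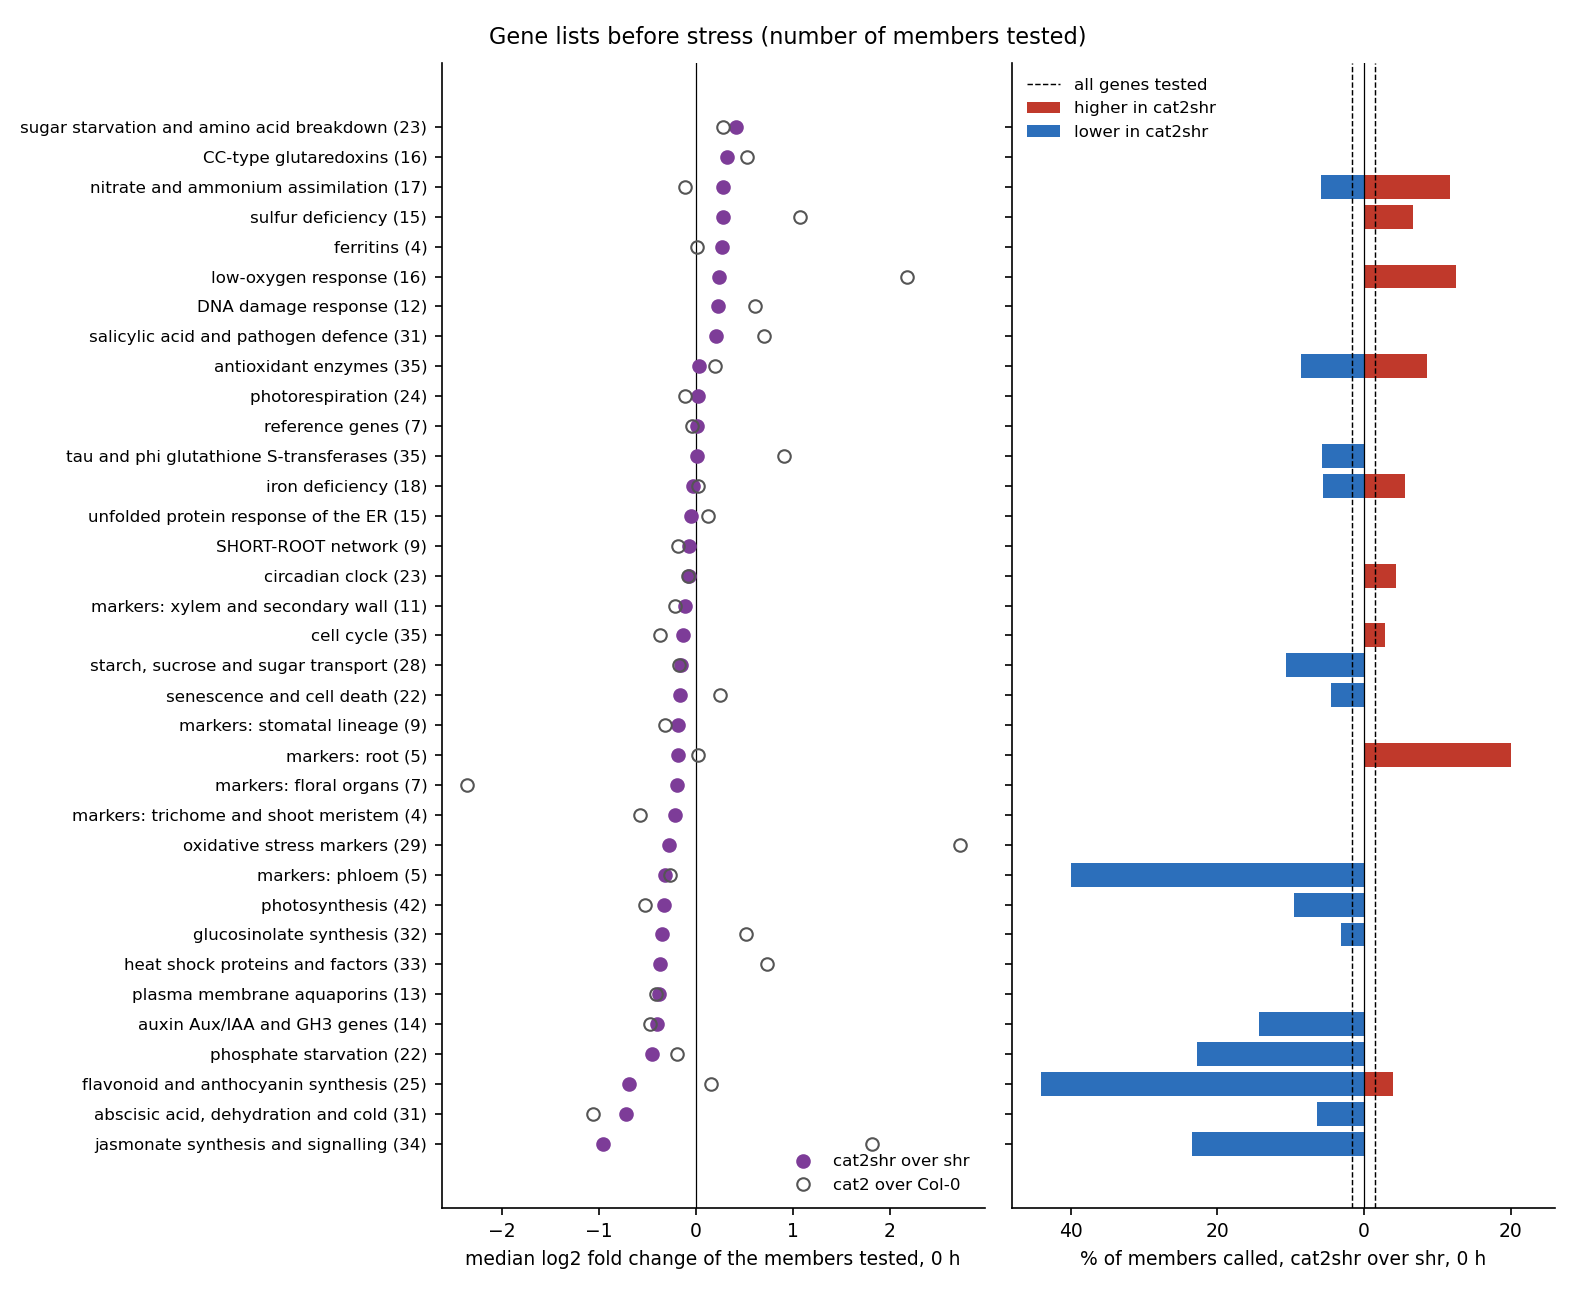
Left, median log2 fold change of the tested members of each of 35 gene lists at 0 h, for cat2shr over shr (filled) and cat2 over Col-0 (open). Right, the percentage of members called higher (red, to the right) or lower (blue, to the left) in cat2shr over shr, with dashed lines at 1.44% and 1.59% for all genes, where the longest bars are the flavonoid list and the phloem list of 5 genes.

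Of 42 photosynthesis genes, 4 were called lower and 0 higher, against 1.59% and 1.44% of all genes. All 42 had a log2 change below 0, from -0.79 to -0.07, with a median of -0.33. LHCB4.2 (AT3G08940), a minor antenna protein of photosystem II, had 1210, 1000 and 680 CPM in cat2shr and 1880, 1590 and 1530 CPM in shr (log2 -0.79, SE 0.183, adjusted p = 0.0246). LHCB6 (AT1G15820), of the same antenna, had 1740, 1690 and 1340 CPM in cat2shr and 2500, 2310 and 2480 CPM in shr (log2 -0.61, SE 0.139, adjusted p = 0.0224). No cat2shr library reached the shr range for either. In each of the fits without cat2shr replicate 2 or 3 or shr replicate 1 or 2, 0 members of the list were called, and 8 were called without cat2shr replicate 1.

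Photorespiration genes, which recycle the product of Rubisco's oxygenation and supply the peroxide that CAT2 removes, showed no called change. The 24 members had a median log2 change of 0.02 and a range from -0.34 to 0.33, with 2 at an unadjusted p under 0.05 and 0 called by DESeq2. AOAT2 (AT1G70580), a glyoxylate aminotransferase, had 88.3, 65.4 and 57.5 CPM in cat2shr and 61.1, 57.9 and 49.5 CPM in shr (log2 0.33, adjusted p = 0.156). DiT1 (AT5G12860), a chloroplast dicarboxylate transporter, had 385, 464 and 395 CPM in cat2shr and 329, 363 and 378 CPM in shr (log2 0.22, adjusted p = 0.206).

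Starch and sugar genes gave a few falls. Of 28 members of the starch, sucrose and sugar transport list, 3 fell and 0 rose (median log2 -0.15), against 1.59% and 1.44% of all genes, and 1 fell without cat2shr replicate 2 or 3 or shr replicate 2. CT-BMY (AT4G17090), a chloroplast beta-amylase that degrades starch, had 285, 232 and 264 CPM in cat2shr and 413, 379 and 418 CPM in shr, with no overlap (log2 -0.63, SE 0.11, adjusted p = 0.00383). GBSS1 (AT1G32900), the list's granule-bound starch synthase, had 20.6, 12.1 and 7.04 CPM in cat2shr and 49.9, 47.9 and 17.2 CPM in shr (log2 -1.53, adjusted p = 0.0406). The groups overlapped at shr replicate 3, and the call was lost without cat2shr replicate 2 or 3 or shr replicate 1 or 2. Sugar starvation and amino acid breakdown genes were not called, though 21 of 23 had a log2 change above 0 (median 0.41). There were 9 at an unadjusted p under 0.05, and DESeq2 called 3 higher. DIN10 (AT5G20250), a dark-induced raffinose synthase family gene, had 290, 375 and 286 CPM in cat2shr and 109, 175 and 233 CPM in shr (log2 0.88, adjusted p = 0.0511), and BXL1 (AT5G49360), a beta-xylosidase, had 238, 210 and 115 CPM in cat2shr and 55.4, 89.5 and 136 CPM in shr (log2 1.00, adjusted p = 0.0878).

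Low-oxygen response genes included the steepest list member. AT5G15120, annotated as a putative 2-aminoethanethiol dioxygenase, had 2.95, 3.41 and 9.61 CPM in cat2shr and 0.102, 0.182 and 0.138 CPM in shr (log2 5.17, SE 0.574, adjusted p = 4.84e-05). LBD41 (AT3G02550), a LOB-domain transcription factor, had 5.42, 5.11 and 9.31 CPM in cat2shr and 0.441, 0.989 and 1.98 CPM in shr (log2 2.50, SE 0.45, adjusted p = 0.00631). Neither overlapped between groups, and both were highest in cat2shr replicate 3. They were the 2 members called of 16 tested, against 1.44% of all genes called higher, and the list's median log2 change was 0.24. Without cat2shr replicate 1, 4 members were called higher. Without cat2shr replicate 3 the log2 change of AT5G15120 was 4.43, and without shr replicate 3 that of LBD41 was 3.15.

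Of 31 abscisic acid, dehydration and cold genes, 2 fell and 0 rose, against 1.59% and 1.44% of all genes, and 29 had a log2 change below 0 (median -0.72). The number called lower was 1 without cat2shr replicate 2 or shr replicate 2, 4 without shr replicate 1, 5 without cat2shr replicate 1 or shr replicate 3, and 7 by DESeq2. GolS2 (AT1G56600), a galactinol synthase of the raffinose pathway, had 25.3, 17.5 and 23.5 CPM in cat2shr and 58.1, 61.8 and 53.6 CPM in shr (log2 -1.39, SE 0.258, adjusted p = 0.00711). DREB1A (AT4G25480), a cold-response transcription factor, had 2.4, 3.19 and 8.38 CPM in cat2shr and 11.6, 17.4 and 17 CPM in shr (log2 -1.72, SE 0.38, adjusted p = 0.02). Both were lower in every cat2shr library, and the call of DREB1A was lost without cat2shr replicate 2 or shr replicate 2, while its log2 change was -2.46 without cat2shr replicate 3. Every other fall in this list failed the threshold.

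Among nutrient lists, phosphate starvation genes changed most, with 5 lower and 0 higher of 22 (median log2 -0.45), against 1.59% and 1.44% of all genes. PHO2 (AT2G33770), a ubiquitin-conjugating enzyme that restrains phosphate uptake, had 40.9, 32.1 and 48.7 CPM in cat2shr and 70, 89.3 and 71.5 CPM in shr (log2 -0.92, SE 0.136, adjusted p = 0.00104). MGD2 (AT5G20410), a galactolipid synthase induced by low phosphate, had 15.8, 10.7 and 10.2 CPM in cat2shr and 22, 24.9 and 22.5 CPM in shr (log2 -0.92, SE 0.169, adjusted p = 0.006). The groups did not overlap for either gene. PHO2 is known to be repressed under phosphate starvation, when MGD2 is induced. The fall of PHO2 thus has the direction of that response, and the fall of MGD2 has the opposite direction. Between 2 and 3 members were called lower without cat2shr replicate 2 or 3 or shr replicate 1 or 2, and 8 without cat2shr replicate 1.

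Of 17 nitrate and ammonium genes, 2 rose and 1 fell (median log2 0.28), against 1.44% and 1.59% of all genes. Without cat2shr replicate 1, 5 rose and 0 fell, and without cat2shr replicate 2 or shr replicate 2, 0 were called. NIA1 (AT1G77760), nitrate reductase, had 126, 771 and 570 CPM in cat2shr and 96.1, 177 and 164 CPM in shr (log2 1.75, SE 0.404, adjusted p = 0.0277). The groups overlapped through cat2shr replicate 1, and without cat2shr replicate 2 the log2 change was 1.25 and not called (adjusted p = 0.127). LBD39 (AT4G37540), a LOB-domain factor of nitrogen responses, had 31, 38.9 and 22.5 CPM in cat2shr and 25, 16.8 and 18.3 CPM in shr, also with overlap (log2 0.62, adjusted p = 0.0457). NIA1 also lost its call without cat2shr replicate 3 or shr replicate 1 or 2, and LBD39 without cat2shr replicate 1 or 2 or shr replicate 2 or 3.

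Sulfur and iron lists gave 1 call of 15 and 2 calls of 18, against 3.03% of all genes called. AT1G04770, a tetratricopeptide repeat gene of the sulfur deficiency list, had 51.3, 56.4 and 47.4 CPM in cat2shr and 38.4, 33.9 and 30.3 CPM in shr (log2 0.60, adjusted p = 0.0434). Of the iron deficiency genes, BHLH101 (AT5G04150), a regulator of iron uptake, was higher at 46.3, 23.8 and 26.3 CPM in cat2shr and 17.1, 10.8 and 7.33 CPM in shr (log2 1.46, SE 0.323, adjusted p = 0.0206). MYB10 (AT3G12820), another factor of the iron response, was lower at 2.59, 2.32 and 2.82 CPM in cat2shr and 4.75, 3.38 and 4.33 CPM in shr (log2 -0.69, adjusted p = 0.0462). None of the 3 overlapped between groups, and each lost its call in at least 3 of the 6 fits that left out a library, MYB10 in all but that without shr replicate 2 and AT1G04770 in all but that without shr replicate 1. BHLH101 lost it without cat2shr replicate 1, shr replicate 2 or shr replicate 3.

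Several lists held 1 or 2 calls each, where 3.03% of all genes were called, so that 1 call in a list of 22 to 35 genes is near that share. Of 14 auxin Aux/IAA and GH3 genes, the Aux/IAA repressors IAA19 (AT3G15540, log2 -0.79, SE 0.153, adjusted p = 0.00849) and IAA14 (AT4G14550, log2 -0.71, SE 0.158, adjusted p = 0.0202) fell. IAA19 had 3.21, 2.72 and 2.99 CPM in cat2shr and 4.89, 4.95 and 5.54 CPM in shr, and IAA14 8.66, 7.36 and 6.32 CPM in cat2shr and 14, 13 and 9.56 CPM in shr, without overlap. IAA14 lost its call without cat2shr replicate 2 or 3 or shr replicate 1 or 2. The D-type cyclin CYCD3;3 (AT3G50070, log2 0.51, adjusted p = 0.0222) was the 1 call of 35 cell cycle genes, lost without cat2shr replicate 2 or 3 or shr replicate 3. ELF3 (AT2G25930, log2 0.31, adjusted p = 0.0176), a clock component, was the 1 call of 23 clock genes, lost without cat2shr replicate 2 or 3 or shr replicate 2. IMS2 (AT5G23020, log2 -1.11, adjusted p = 0.0143), an enzyme of aliphatic glucosinolate synthesis, was the 1 call of 32 glucosinolate genes, lost without cat2shr replicate 2 or shr replicate 2. Without shr replicate 3, 5 glucosinolate genes were called lower (median log2 -0.47), without shr replicate 1 2 were, and DESeq2 called 2. MYB34 (AT5G60890), a regulator of indole glucosinolates, narrowly missed the threshold (log2 -1.14, adjusted p = 0.0502). The NADPH oxidase gene RBOH F (AT1G64060, log2 -0.50, adjusted p = 0.0481), which makes superoxide outside the cell, was the 1 call of 22 senescence and cell death genes, kept without shr replicate 3 only.

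In 16 of the 35 lists edgeR called 0 members. Together they held 247 members tested, of which 42 had an unadjusted p under 0.05 and DESeq2 called 7. Besides those already given, they were heat shock proteins and factors (median log2 -0.37 over 33), the unfolded protein response (-0.05 over 15), salicylic acid and pathogen defence (0.21 over 31), ferritins (0.27 over 4), the DNA damage response (0.23 over 12), the SHORT-ROOT network (-0.07 over 9), CC-type glutaredoxins (0.32 over 16), plasma membrane aquaporins (-0.38 over 13), reference genes (0.01 over 7) and 4 of the 6 marker lists. Leaving out a library gave calls in some of them: 2 glutaredoxins and 2 DNA damage genes higher without cat2shr replicate 1, and 2 aquaporins lower without cat2shr replicate 1 or shr replicate 1. The medians of heat shock and salicylic acid genes changed sign without 1 library. Heat shock genes had a median of 0.29 without shr replicate 3, which lay 0.87 log2 units above its companions for this list, and -0.08 without cat2shr replicate 3. Salicylic acid genes had a median of -0.15, with 1 member called lower, without cat2shr replicate 1, which lay 0.85 log2 units above its companions. The 7 reference genes ranged from -0.06 to 0.12. PR5 (AT1G75040), a salicylate marker, had 16.6, 6.09 and 7.07 CPM in cat2shr and 20.6, 12.6 and 18.4 CPM in shr (log2 -0.79, adjusted p = 0.206). NAC103 (AT5G64060), a factor of the unfolded protein response, had 0.713, 2.79 and 3.98 CPM in cat2shr and 0.917, 0.963 and 1.1 CPM in shr (log2 1.31, adjusted p = 0.0897). The SHR target MGP (AT1G03840) had 0.259, 0.471 and 0.103 CPM in cat2shr and 0.509, 0.625 and 0.772 CPM in shr (log2 -1.20, adjusted p = 0.15). Aquaporins were uniform in sign, as all 13 lay below 0 and 10 had an unadjusted p under 0.05, and PIP2A (AT3G53420) had 422, 351 and 283 CPM in cat2shr and 442, 649 and 471 CPM in shr (log2 -0.56, adjusted p = 0.0808).

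Of the markers of other cell types, 2 of 5 phloem genes were called lower and 1 of 5 root genes higher, against 1.59% and 1.44% of all genes, and none of the other 4 lists had a call. All 5 phloem markers had a log2 change below 0 and an unadjusted p under 0.05, with a median of -0.32. SUC2 (AT1G22710), the sucrose transporter of companion cells, had 230, 176 and 158 CPM in cat2shr and 297, 266 and 231 CPM in shr (log2 -0.50, adjusted p = 0.0439). It is also a member of the starch, sucrose and sugar transport list, where its fall was counted too. APL (AT1G79430), a phloem identity factor, had 18.1, 20.3 and 20.5 CPM in cat2shr and 23.5, 26.2 and 23.6 CPM in shr (log2 -0.32, adjusted p = 0.0402). The groups did not overlap for either, the 5 phloem markers summed to 362 to 461 CPM in cat2shr and 465 to 593 CPM in shr, and the call of SUC2 was lost without cat2shr replicate 2 or 3 or shr replicate 1 or 2, and that of APL was kept without shr replicate 1 only. WOX5 (AT3G11260), a root stem cell marker, rose at a very low level, with 0.454, 1.09 and 1.51 CPM in cat2shr and 0.0679, 0.156 and 0.193 CPM in shr (log2 2.79, SE 0.544, adjusted p = 0.00827). The other 4 root markers lay below 0, down to log2 -1.22, and the median of the root list was -0.18. Xylem markers summed to 88.3 to 107 CPM in cat2shr and 91.7 to 104 CPM in shr, and stomatal lineage markers to 60.3 to 71 CPM in cat2shr and 69.2 to 86.2 CPM in shr. The 11 neighbours of CAT2 and SHR ranged from log2 -0.46 (AT4G37620) to 0.74 (AT4G35110). The part of cell type shares in any result above was not tested.

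Genes with the smallest p-values form another view, chosen after the values were seen. First was AT4G08790, of the nitrilase and N-acyltransferase family, with 8.79, 7.75 and 9.34 CPM in cat2shr and 2.27, 2.55 and 2.76 CPM in shr (log2 1.77, SE 0.128, adjusted p = 2.8e-07). Its mean in Col-0 was 8.65 ± 0.771 CPM, near the cat2shr libraries. The oligopeptide transporter OPT1 (AT5G55930) had 54.6, 42 and 34.7 CPM in cat2shr and 13.1, 13.9 and 12 CPM in shr (log2 1.75, SE 0.164, adjusted p = 3.89e-06). OMT1 (AT5G54160), an O-methyltransferase of phenylpropanoids, had 218, 297 and 284 CPM in cat2shr and 103, 127 and 130 CPM in shr (log2 1.15, SE 0.114, adjusted p = 7.55e-06). The groups were clearly apart in all 3, and each was called in all 6 fits that left out a library. TPD1, named for tapetum determinant, had 43.5, 52.1 and 53 CPM in cat2shr and 17, 17.6 and 18.3 CPM in shr (log2 1.49, SE 0.13, adjusted p = 1.9e-06), and AT1G80130, a tetratricopeptide repeat gene, had 17.5, 13.3 and 20 CPM in cat2shr and 74.4, 70.9 and 53.9 CPM in shr (log2 -1.97, SE 0.237, adjusted p = 0.000124).

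The loss of CAT2 with SHR intact, cat2 against Col-0 at 0 h, was measured in libraries that the comparison above does not use. It called 4741 genes (23.3%). Of the 616 genes called in cat2shr against shr, 334 were called there too, which is 54.2% of the 616 and 7.04% of the 4741. They were higher in both for 153 genes, lower in both for 151 and opposite for 30. The log2 changes had the same sign for 77.8% of the 616 genes and for 63.1% of all genes tested, and Pearson's r was 0.51 across the 616 genes and 0.12 across all genes tested, a description over genes that share libraries and scaling. The difference between the effects was tested as an interaction, which uses the cat2shr and shr libraries again and called 1008 genes (4.95%, with 1.35% positive and 3.61% negative), 128 of the 616 among them (20.8%). The 4741 calls became 2988 without Col-0 replicate 1, 2994 without Col-0 replicate 2 and 3048 without cat2 replicate 2. The 1008 became 524 without Col-0 replicate 2, 547 without shr replicate 2, 577 without Col-0 replicate 1 and 644 without cat2 replicate 2.

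The rises of APX1, LBD41 and CYP81D11 were larger where SHR was intact. APX1 averaged 1360 ± 61.2 CPM in cat2 and 160 ± 37.8 CPM in Col-0 (log2 3.08, adjusted p = 8.27e-09), and the difference between its effects was called (adjusted p = 0.0491). LBD41 averaged 31.6 ± 6.29 CPM in cat2 and 1.05 ± 0.263 CPM in Col-0 (log2 4.89, adjusted p = 1.84e-06), and CYP81D11 averaged 363 ± 82.2 CPM in cat2 and 7.92 ± 0.405 CPM in Col-0 (log2 5.52, adjusted p = 1.34e-05). Their differences were called as well (adjusted p = 0.0459 and 0.0207). The difference lost its call for APX1 without cat2shr replicate 1 or 3 or shr replicate 3, for LBD41 without cat2shr replicate 1 or 2 or shr replicate 2 or 3 (log2 -1.78 without shr replicate 3), and for CYP81D11 without shr replicate 2. For single genes and lists, here and below, only cat2shr or shr libraries were left out of this test. How far their differences rest on single cat2 or Col-0 libraries was not examined. For AT5G15120, with 12.3 ± 4.33 CPM in cat2 and 0.0956 ± 0.06 CPM in Col-0, the difference was not called (adjusted p = 0.448).

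Other rises were larger without SHR. CYP707A2 averaged 18.1 ± 4.19 CPM in cat2 and 6.09 ± 1.02 CPM in Col-0, a log2 change of 1.58 against 3.29 in cat2shr over shr (adjusted p of the difference = 0.0246). AT2G05540 averaged 36.4 ± 6.07 CPM in cat2 and 28.7 ± 5 CPM in Col-0, a log2 change of 0.34 against 3.02 (adjusted p of the difference = 0.0102). For both genes shr had the lowest mean of the 4 genotypes. The same held for AT4G08790, which averaged 9.94 ± 1.67 CPM in cat2 and 8.65 ± 0.771 CPM in Col-0. Its log2 change there was 0.20 (adjusted p = 0.23), against 1.77 in cat2shr over shr (adjusted p of the difference = 0.000142). OPT1, OMT1 and TPD1, also among the smallest p-values, rose in cat2 over Col-0 as well (log2 2.85, 1.35 and 1.72). The difference for CYP707A2 lost its call without cat2shr replicate 1 or 3 or shr replicate 2 or 3. Of the 293 genes higher in cat2shr, the difference was called for 39 in the positive and 16 in the negative direction. Of the 323 genes lower in cat2shr, it was called for 7 in the positive and 66 in the negative direction. These genes were chosen on the change in cat2shr over shr, which enters the difference, so the counts are given as a description.

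**Figure D4:**
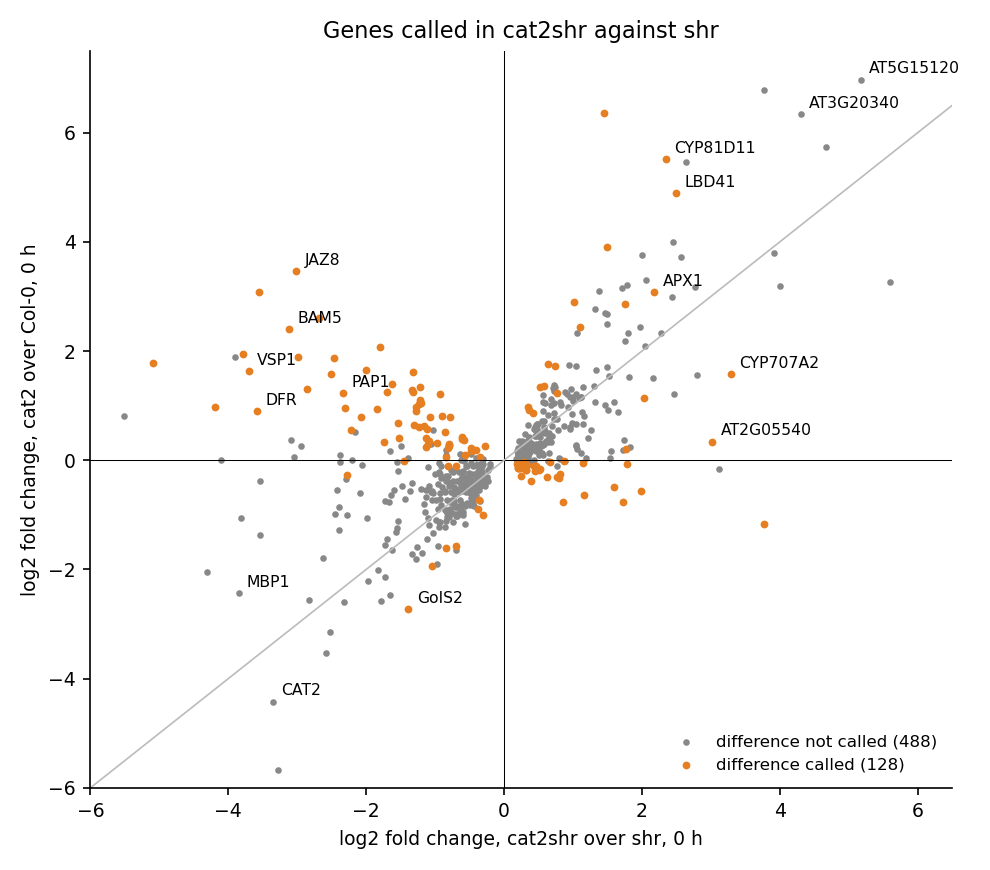
Log2 fold change of cat2shr over shr (horizontal) and of cat2 over Col-0 (vertical) at 0 h for the genes called in cat2shr against shr, with a grey line of equal change. The 128 genes whose difference was called are orange and the other 488 grey, AT4G18410 and NAC085 lie outside the axes, and the jasmonate and anthocyanin genes JAZ8, VSP1, PAP1 and DFR lie at the upper left.

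With SHR intact, jasmonate genes rose. In cat2 against Col-0, 25 of the 34 members rose and 0 fell, with a median log2 change of 1.81, where 11.5% of all genes rose. All 33 members below 0 in cat2shr over shr were above 0 in cat2 over Col-0, and the difference was called for 29 of the 34, each of them lower without SHR. Without shr replicate 2, the library highest in these genes, the difference was called for 25 of the 34, with a median of -2.19 against -2.87, while the log2 change in cat2shr over shr then had a median of -0.06. VSP1 averaged 63.5 ± 22.8 CPM in cat2 and 20.6 ± 3.98 CPM in Col-0 (log2 1.63, adjusted p = 0.0505, and 0.00237 for the difference). HPL1 averaged 13.4 ± 2.96 CPM in cat2 and 5.42 ± 1.01 CPM in Col-0 (log2 1.31, adjusted p = 0.022, and 0.000912 for the difference). The oxidative stress markers had 24 of 29 members higher and 0 lower in cat2 against Col-0, with a median of 2.72, and their difference was called for 14, which ran from 7 without shr replicate 2 to 24 without shr replicate 1.

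Among the 4 genotypes, the anthocyanin genes DFR and PAP1 had their highest mean in shr. DFR averaged 1.73 ± 0.822 CPM in cat2 and 0.904 ± 0.595 CPM in Col-0, near the cat2shr libraries. PAP1 averaged 3.61 ± 1.75 CPM in cat2 and 1.54 ± 0.0669 CPM in Col-0. Neither differed past the threshold between cat2 and Col-0 (adjusted p = 0.437 and 0.076), and their difference between the effects was called (adjusted p = 0.022 and 0.00591), for DFR not without cat2shr replicate 3 or shr replicate 2 (adjusted p = 0.0505 and 0.0539). In the flavonoid list as a whole, 2 members rose and 2 fell in cat2 against Col-0, with a median log2 change of 0.16, and the difference was called for 4 of 25, with 2 without shr replicate 2, 7 without shr replicate 1 and 10 without shr replicate 3. Photosynthesis genes fell in cat2 against Col-0 for 33 of 42 members (median log2 -0.52), where 11.8% of all genes fell, and the difference was called for 0 of 42.

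**Figure D5:**
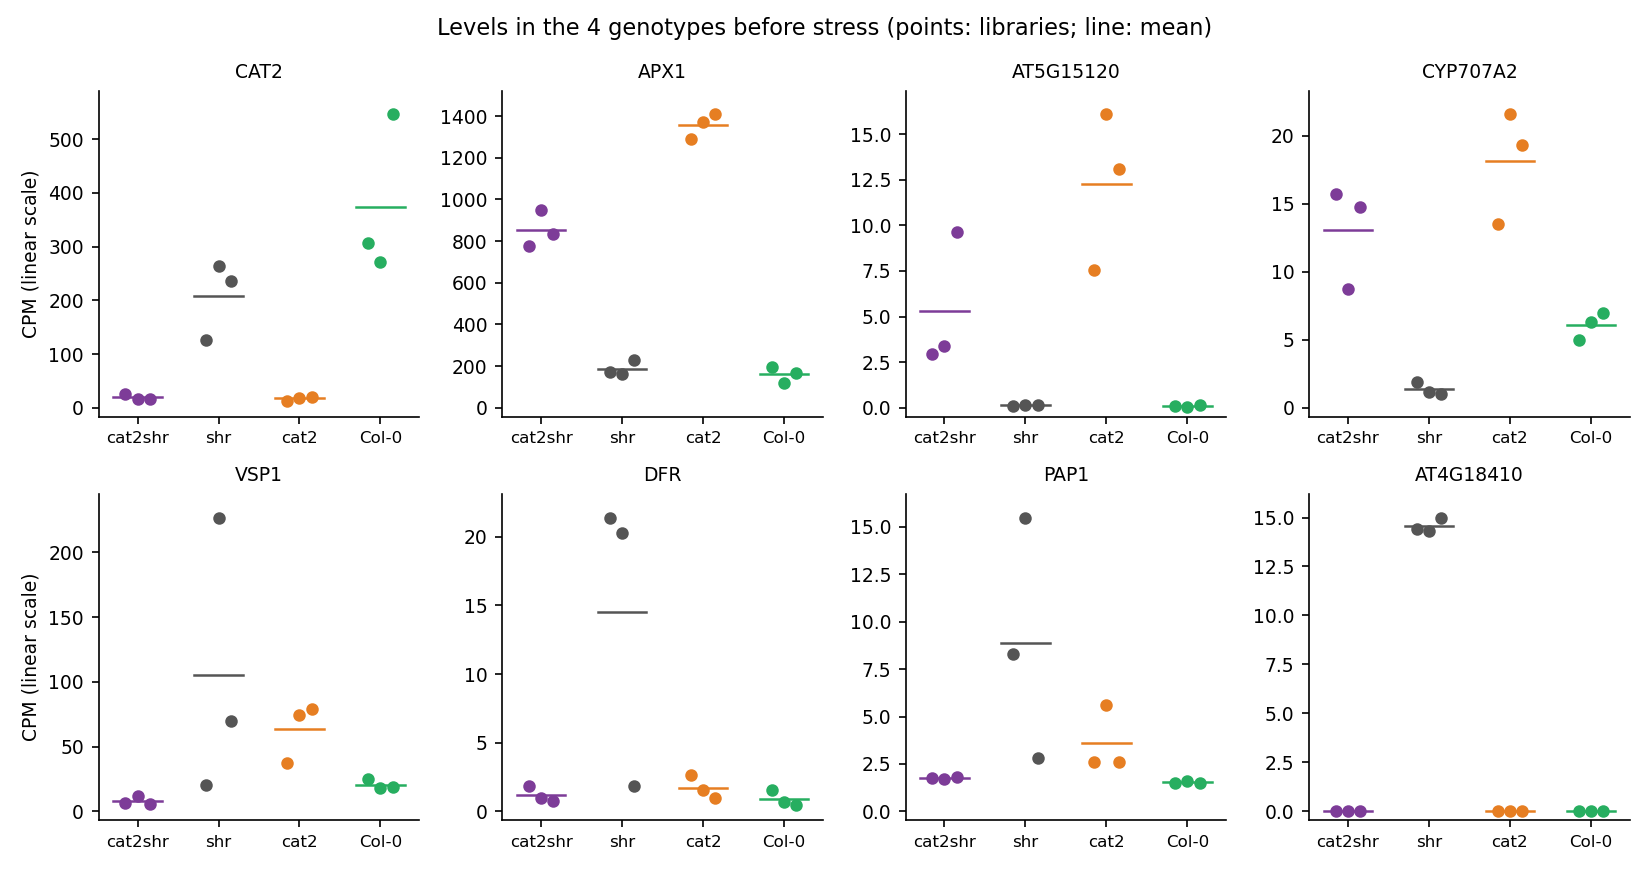
CPM of 8 genes in each library of cat2shr, shr, cat2 and Col-0 at 0 h (linear scale from 0, points are libraries, lines are means). APX1, AT5G15120 and CYP707A2 are higher in cat2shr than in shr and in cat2 than in Col-0, while DFR, PAP1 and AT4G18410 are highest in shr.

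After 24 h of stress the same genotypes differed far more widely, in libraries not used above. At 24 h 11233 genes (55.2%) were called between cat2shr and shr, 27.3% higher and 27.9% lower. Of the 616 genes called before stress, 398 were called again, which is 64.6% of the 616 and 3.54% of the 11233, higher at both times for 199, lower at both for 159 and opposite for 40. The sign was the same for 80.4% of the 616 and for 60.6% of all genes tested. A change in the effect between the times, which uses the 0 h libraries again, was called for 7184 genes (35.3%) and for 228 of the 616 (37%).

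APX1 and AT5G15120 were higher in cat2shr at both times, while VSP1 and DFR were not called at 24 h. APX1 averaged 1200 CPM in cat2shr and 216 CPM in shr at 24 h (log2 2.48, adjusted p = 2.08e-08), and AT5G15120 averaged 11.4 CPM in cat2shr and 0.078 CPM in shr (log2 7.14, adjusted p = 7.34e-08). LBD41 averaged 32.3 CPM in cat2shr and 0.465 CPM in shr at 24 h, a larger change than at 0 h (log2 6.12 against 2.50, adjusted p of the change = 0.00121). VSP1 averaged 10.6 CPM in cat2shr and 9.42 CPM in shr at 24 h (log2 0.17, adjusted p = 0.828), and DFR 0.424 CPM in cat2shr and 0.285 CPM in shr (log2 0.58, adjusted p = 0.673). The changes in their effect between the times were called (adjusted p = 0.00235 and 0.019). CAT1, not called before stress, averaged 337 CPM in cat2shr and 115 CPM in shr at 24 h (log2 1.55, adjusted p = 3.15e-07).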

How the data were processed

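The deposited table holds raw counts of reads per gene for 24 libraries of polyadenylated RNA (TruSeq Stranded mRNA kit, per the labels' protocols), of 8 groups with 3 libraries each. Per the submitters' processing notes, the authors used Trim Galore 0.3.3, TopHat2 2.1.0, featureCounts from Subread 1.4.6 and the TAIR10 genome to make these counts; the strand setting of the counting is not known here, so overlapping antisense genes may share reads. Totals were 26.85 to 38.46 M counts in the 6 libraries compared. No library pair of a group agreed within sampling noise.

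Genes with too few counts were removed with edgeR's filterByExpr, which left 20347 of 33602 loci. TMM scaling and a robust quasi-likelihood fit over all 24 libraries followed (edgeR 4.0.16, R 4.3.3), with Benjamini-Hochberg adjustment over all genes tested. The comparisons were cat2shr against shr at 0 h, the same at 24 h, cat2 against Col-0 at 0 h, and the differences of these effects. In simulated data for the first comparison, with 20259 genes in the fit, 82% of 100 genes changed 2-fold and 88% of 100 changed 4-fold were called, with 6 unchanged genes. The changed genes were drawn only from those above a minimum mean count. Every gene varied on its own, so shifts shared by many genes of a library were absent. These shares are therefore no measure of how many real changes were found. DESeq2 1.42.0, other scalings, filters, thresholds, a replicate block and fits without single libraries were alternatives.

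Genes named are CAT2, SHR and the other catalases, the 10 largest rises and 10 largest falls among called genes with a mean of at least 5 CPM and no overlap between groups, the 2 members of each of 35 lists with the smallest adjusted p, and up to 3 neighbours of CAT2 and SHR on each side. Other genes are said to be named after their values were seen, as were the 8 genes plotted across genotypes and the called members labelled in plots. The members and the lists were chosen with earlier results of these data known. Symbols, products and promoter sequences are from RefSeq (TAIR10.1), matched by locus for 32835 loci.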

Additional observations from a re-analysis of the deposited data

Results flagged for a closer look

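For 54 effects of losing CAT2 without SHR at 0 h, a test of the difference from the same effect elsewhere was called by edgeR. Each such difference reuses the cat2shr and shr libraries at 0 h, and explanations were not tested. Values below are log2 differences.

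The effect without SHR minus the effect with SHR (cat2 over Col-0), at 0 h, was positive for 4 genes. It was 1.71 for CYP707A2, 2.68 for AT2G05540, 1.34 for GolS2 and 0.93 for LBD39. GolS2 fell less without SHR than with it. Among the 6 fits that left out a cat2shr or shr library, its call was kept only without cat2shr replicate 2. That of LBD39 was kept only without cat2shr replicate 3 or shr replicate 1.

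The same difference was negative for members of the jasmonate list, at -5.33 for VSP1, -2.77 for VSP2 and -4.87 for ST2A. Outside that list it was -4.17 for the hydroperoxide lyase HPL1 and -5.53 for the beta-amylase BAM5. It was -4.49 for DFR, -3.56 for PAP1 and -1.44 for TT4 in the anthocyanin pathway. Stress and low-oxygen genes gave -3.17 for CYP81D11, -0.91 for APX1, -2.24 for OPR1, -3.63 for AT5G09570, -2.39 for LBD41 and -1.53 for the glutaredoxin AT2G30540. It was -1.93 for GBSS1, -1.41 for IMS2 and -1.82 for MYB34. The differences of OPR1, AT5G09570, GBSS1 and TT4 lost their call without cat2shr replicate 3 or shr replicate 2. OPR1 and AT5G09570 also lost it without shr replicate 3, AT5G09570 and GBSS1 without cat2shr replicate 2, and GBSS1 without shr replicate 1.

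The effect without SHR at 24 h minus that at 0 h was positive for genes that were lower in cat2shr at 0 h and closer to shr at 24 h. It was 3.40 for MBP1, 3.88 for VSP1, 4.17 for DFR, 2.90 for AT1G52000, 3.21 for ST2A, 2.07 for HPL1, 1.58 for VSP2, 1.05 for TT4, 2.27 for PAP1, 0.84 for PHO2, 0.55 for APL and 0.62 for SUC2. It was also 0.84 for PIP2A, 2.02 for HIPP25, 0.45 for PIP3, 0.42 for ACA2 and 0.53 for HHP4, none of which was called at 0 h. HIPP25, PIP3, ACA2 and HHP4 lie next to CAT2 or SHR, as do AT4G35110 (0.96) and AT4G37660 (-0.43).

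It was 1.15 for CAT1, 1.83 for OPR1, 0.86 for GPX6, 3.62 for LBD41, 1.41 for the serine hydroxymethyltransferase gene SHM7 and 1.23 for NYE1, a gene of chlorophyll breakdown, all of them further above shr at 24 h.

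It was negative at -2.39 for CYP707A2, -1.44 for AT2G05540, -0.86 for CT-BMY, -1.64 for BHLH101, -0.71 for the ferritin FER3, -0.59 for CYCD3;3, -1.17 for IAA19 and -1.03 for IAA14.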

How the results depend on the processing

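The calls numbered 616 in all, 293 for cat2shr against shr at 0 h, higher, and 323 for cat2shr against shr at 0 h, lower. DESeq2 gave 1198 (613 higher, 585 lower), a fit to the 6 libraries alone 7 (4 higher, 3 lower), an adjusted p under 0.01 151 (82 higher, 69 lower) and a change of at least 2-fold 208 (84 higher, 124 lower). Scaling by library size gave 640 higher, and no filter 185 higher. Leaving out 1 library gave 225 to 970 calls, 121 to 486 higher and 97 to 484 lower. For cat2 against Col-0 that range was 2988 to 4163. For the difference of the CAT2 effects it was 524 to 1478, with 1606 from DESeq2 and 282 from the groups compared alone. With a replicate block, 919 genes were called, 450 of them higher, and with the block in the 6 libraries alone 152 were called, 77 higher and 75 lower. Deviations of same-numbered cat2shr and shr libraries correlated at 0.3, 0.38 and 0, and those of differently numbered libraries at -0.5 to 0.29. Among the shr libraries, cat2shr replicate 3 correlated best with replicate 1 (0.13), though it correlated at 0.42 with cat2 replicate 3. Between the other pairs of 0 h groups, same-numbered libraries correlated at -0.06 to 0.42 and differently numbered ones at -0.32 to 0.24. The labels name no pairing, so the main fit had none. Whether libraries of the same number were handled together is not known. Of 51 called genes named by rule, 0 changed sign under any of the 15 alternatives, 2 (APX1 and AT4G18410) kept their call in each and 49 lost it in 1 or more, 27 of them without some single library. Of the 51 that were not called, 3 changed sign: AT1G52560 (log2 -2.35) was 0.52 without shr replicate 3 and between -3.45 and -1.78 when other libraries were left out, XCP1 (-0.19) was 0.009 without replicate 1 of both groups and -0.35 without shr replicate 2, and MYB0 (-0.33) was 0.051 without cat2shr replicate 2 and -0.60 without shr replicate 3. Beyond these, AT4G37660 (-0.12) was 0.004 without replicate 1 of both groups and NAGS2 (0.18) was -0.002 without cat2shr replicate 2, values that round to 0 at 2 decimals and were not counted. The cause was not tested. Depth limits genes near 1 CPM most, and 3 libraries a group limit every call.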
